A study of Mus musculus with 12 samples.

Results

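The genes described here encode the proteins of the cytosolic ribosome. They were picked by a rule on name and annotation, set with earlier results of these data known. It takes the protein-coding rows of the expression table whose symbol begins with Rpl, Rps or Rplp followed by a digit, without the Rps6k kinases. The rule found 93 of 54532 rows, on 20 chromosomes. Of these, 76 are the canonical genes of the large (60S) and small (40S) subunit, 8 are paralogs (Rpl3l, Rpl7l1, Rpl10l, Rpl22l1, Rpl36al, Rpl39l, Rps27l and Rps27rt), 8 carry a pseudogene symbol although the table lists them as protein-coding, and 1, Rps19bp1, encodes a binding partner of a ribosomal protein rather than a subunit. The measure was the number of poly(A) RNA-seq reads per gene. A filter on low counts kept 87 of the 93 rows. Rpl10l, Rpl39l, Rpl13a-ps1, Rpl36-ps4 and Rpl9-ps1 had 0 counts in every library and Rpl3l had 5 and 3 counts in a pair of siKEAP1 libraries and 0 elsewhere.

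A ribosome holds one copy of most of its proteins, and growing cells make them in matched amounts from some of the most abundant mRNAs of the cell. Many of these mRNAs begin with a terminal oligopyrimidine (TOP) tract, a C followed by a run of C and T letters, through which mTORC1 signalling and the binding protein LARP1 control their translation and stability. Several ribosomal protein genes also carry small nucleolar RNA (snoRNA) genes in their introns.

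The study asked how the myoblast transcriptome responds when KEAP1, the substrate adaptor through which a cullin-3 ligase degrades the transcription factor NRF2, and CCNF (cyclin F), the substrate receptor of an SCF ubiquitin ligase, are depleted alone or together. C2C12, an established mouse myoblast line, was transfected with siRNA at 30 nM and harvested after 48 h, in 4 groups of 3 libraries labelled as biological replicates. The groups were siCONTROL (a control siRNA), siKEAP1, siCCNF and siKEAP1/siCCNF (both siRNAs), and all of them were cells of the same line grown in DMEM with serum. The labels do not say which Ccnf siRNA was used, so each depletion is read here as 1 siRNA treatment of 1 cell line.

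The start of the mRNA is where a TOP tract would lie, so windows of 30 bases around the annotated start are shown for members that the results below return to. Each has 15 bases before the start and 15 from it on, 5′ to 3′ on the strand of the gene, from RefSeq on GRCm38.p6. Capitals mark a C followed by at least 4 further letters that are each C or T, with the run beginning within 5 bases of the start, searched on the strand of the gene only. Rps6 encodes the 40S protein that S6 kinases phosphorylate, and Rps18 and Rps2 are 40S members with large differences below. Rps27 and Rps27l are a paralog pair, as are Rpl22 and Rpl22l1. Rps28, Rpl5 and Rplp0 are shown as members with no such run in this window.
Rps6, chr4:86857353-86857382, minus strand: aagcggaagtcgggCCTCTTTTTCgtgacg
Rps18, chr17:33955651-33955680, minus strand: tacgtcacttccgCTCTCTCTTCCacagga
Rps2, chr17:24720048-24720077, plus strand: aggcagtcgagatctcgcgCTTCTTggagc
Rps27, chr3:90213634-90213663, minus strand: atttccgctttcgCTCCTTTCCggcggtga
Rps27l, chr9:66946071-66946100, plus strand: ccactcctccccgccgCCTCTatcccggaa
Rpl22l1, chr3:28805493-28805522, plus strand: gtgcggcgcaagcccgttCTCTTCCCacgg
Rpl22, chr4:152325711-152325740, plus strand: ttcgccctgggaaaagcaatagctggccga
Rps28, chr17:33824548-33824577, minus strand: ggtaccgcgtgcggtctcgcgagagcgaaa
Rpl5, chr5:107900513-107900542, plus strand: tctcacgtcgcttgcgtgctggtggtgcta
Rplp0, chr5:115559452-115559481, plus strand: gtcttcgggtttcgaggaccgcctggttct

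RefSeq promoters were matched for 65 of the 93 members. A run of this kind was found at an annotated start of 30 of these 65 genes (46.2%), against 21.2% of all 27025 RefSeq genes with a promoter in the table. The share was 24.6% for genes of mitochondrial ribosomal proteins and 30.2% for subunits of oxidative phosphorylation. By promoter, the shares were 41.6% of 77 for the members and 18.3% of 32851 for all genes. An annotated start can lie some bases away from the start used in these cells, so a window without a match says only that these letters are not there.

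The libraries held between 18464209 and 37743198 counts, and every siCCNF and siKEAP1/siCCNF library was deeper than every siCONTROL library. The targeted genes followed the labels. Keap1 fell by 2.80 on the log2 scale after siKEAP1 and by 1.86 after siKEAP1/siCCNF, and Ccnf fell by 1.98 after siCCNF and by 1.73 after siKEAP1/siCCNF. The 6 myoblast markers Myod1, Myf5, Pax7, Des, Itga7 and Cdh15 lay between 86.3 CPM (Myf5) and 614 CPM (Des) in siCONTROL, where CPM is the count scaled to library size with TMM factors, and each was lower in all 3 depletions than in siCONTROL. Of the 8 myotube markers tested, 8, 7 and 8 were lower after siKEAP1, siCCNF and siKEAP1/siCCNF. Over all genes tested, 20.2%, 25.5% and 23.6% were called lower in these comparisons. Within siCONTROL, replicate 1 had the highest CPM for each of the 8. Myog was at 74.6, 32.0 and 29.3 CPM in siCONTROL replicates 1 to 3, and Myh3 was at 7.04, 2.93 and 3.95 CPM. The part of these differences in the results below was not tested.

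Ribosomal protein genes are short, so the trend of each library with gene length was measured first. For each library, the deviation of every other gene from its group mean on the log2 CPM scale was correlated with log2 gene length over 15035 genes that are no members. The correlation was -0.302 in siCONTROL replicate 1 and -0.273 in siKEAP1/siCCNF replicate 3, so these 2 libraries held more counts on short genes than the others of their group. It lay between 0.149 and 0.204 in the other libraries of those groups, and between -0.0915 and 0.0922 in the 6 siKEAP1 and siCCNF libraries. The ribosomal protein genes moved with it. Their median deviation from the group mean was 0.29 in siCONTROL replicate 1 and 0.22 in siKEAP1/siCCNF replicate 3, and it lay between -0.17 and 0.13 in the other 10 libraries. Member by member, siCONTROL replicate 1 was the highest of its group for 85 of the 87 members and siKEAP1/siCCNF replicate 3 for 83. In siCCNF, replicate 1 was the highest for 80, with a median deviation of 0.13 and a weaker correlation with length of -0.0915. The counts of calls below are also given without siCONTROL replicate 1 and siKEAP1/siCCNF replicate 3, the 2 libraries with the stronger trend. There, siCCNF replicate 1 was kept.

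Together, the 93 rows took a larger share of all counts in the CCNF-depleted cells. The share was 4.61%, 3.47% and 3.36% in siCONTROL replicates 1 to 3 and 4.27%, 4.17% and 3.90% in siKEAP1. It was 6.72%, 5.79% and 5.98% in siCCNF and 6.16%, 6.13% and 7.64% in siKEAP1/siCCNF. Each of the 6 libraries with siCCNF lay above each of the 6 without it, whereas siKEAP1 lay within the range of siCONTROL. The group means were 3.81% ± 0.688 (SD, n = 3) in siCONTROL, 4.11% ± 0.194 in siKEAP1, 6.16% ± 0.492 in siCCNF and 6.64% ± 0.867 in siKEAP1/siCCNF. The means of siCCNF and siKEAP1/siCCNF were 1.62 and 1.74 times that of siCONTROL. The 95% exact (Clopper-Pearson) binomial intervals, which cover counting error only, were narrow beside the spread between libraries, and the widest, of siKEAP1/siCCNF replicate 3, ran from 7.634% to 7.656%. The shares are given as a description, with no test over the members. In bulk libraries a rise in every cell, a rise in some cells and a loss of other transcripts cannot be told apart.

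**Figure D1:**
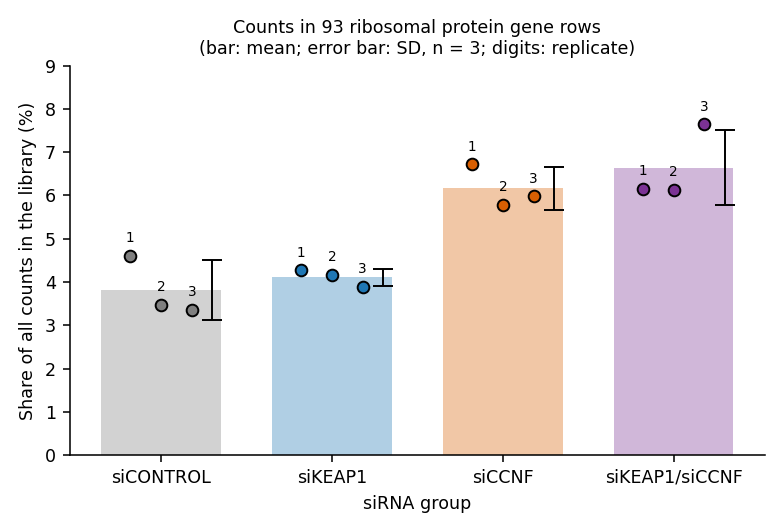
Share of all counts in the library (%) that fell on the 93 ribosomal protein gene rows, by siRNA group; points are single libraries with their replicate number, bars are means and error bars are SD (n = 3). The 6 libraries with siCCNF lay between 5.79% and 7.64% and the 6 without it between 3.36% and 4.61%.

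Per length, most canonical members were among the abundant mRNAs of the control cells. On the FPKM scale, in which fragments are divided by gene length and library size, 68 of the 76 canonical genes had a mean of at least 30 FPKM in siCONTROL. They ranged from 52.6 FPKM for Rps15a to 2543 FPKM for Rplp1, with a median of 236 FPKM. Rplp1 encodes a stalk protein of the 60S subunit, and at 2543 ± 590 FPKM (SD, n = 3) it stood above Rplp0, its partner in the stalk, at 1391 ± 184 FPKM. The other 8 canonical genes lay between 0.999 and 26.6 FPKM, which were Rps10, Rpl24, Rpl29, Rpl21, Rpl26, Rps18, Rps2 and Rpl13a.

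Ribosomal protein genes have many processed pseudogenes of near-identical sequence, and for 3 of the 8 low genes (Rps2, Rps10 and Rpl21) the pseudogene rows held more counts than the gene itself. Over the 3 siCONTROL libraries the Rps2 row held 1665 counts, and 10 rows named as Rps2 pseudogenes held 75551. The Rps10 row held 144 counts against 10164 in 4 Rps10 pseudogene rows, and the Rpl21 row held 597 against 5055 in 15 rows. Rpl24 and Rpl13a had no pseudogene row of their name with the pseudogene biotype. How reads that fit several copies were assigned is not given in the sources used here, so the levels of these genes are uncertain, and their differences belong to the reads that were assigned to the row. The 288 rows of ribosomal protein pseudogenes together took between 0.370% and 0.787% of all counts.

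The transcripts of most ribosomal protein genes were more abundant in CCNF-depleted cells. After siCCNF, 71 of the 87 members were higher than in siCONTROL and 0 were lower at an adjusted p under 0.05 (the quasi-likelihood test of edgeR, with Benjamini-Hochberg adjustment over all 15122 genes tested). Over all genes tested, 22.5% were called higher and 25.5% lower. The median log2 fold change of the members was 0.76, a 1.69-fold difference, against 0.01 for all genes tested. The 3 siCCNF libraries lay above the 3 siCONTROL libraries without overlap for 68 members, a pattern that 27.8% of all genes showed. Most differences were below 2-fold, and 9 of the 87 members were called and over 2-fold higher, as were 4.61% of all genes. Without siCONTROL replicate 1 and siKEAP1/siCCNF replicate 3, 79 members were higher, 1 was lower and the median was 0.93, with 26.7% of all genes called higher and 27.9% lower.

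Both subunits took part. Of the canonical genes, 38 of 46 of the 60S subunit and 28 of 30 of the 40S subunit rose, against 22.5% of all genes tested. Their median log2 fold changes were 0.75 and 0.79.

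Rps6 showed the typical size. Its CPM was 843, 696 and 674 in siCONTROL and 1294, 1194 and 1066 in siCCNF. All siCCNF libraries lay above all siCONTROL libraries, and the log2 fold change was 0.68 ± 0.10 (SE, adjusted p = 6.76e-05).

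The 60S stalk proteins recruit translation factors to the ribosome, and their genes rose in parallel. Rplp0 was at 2675, 2180 and 2119 CPM in siCONTROL and at 3904, 3380 and 3395 CPM in siCCNF, a log2 fold change of 0.61 ± 0.11 (adjusted p = 0.000333). Rplp1 and Rplp2 had log2 fold changes of 0.72 ± 0.15 and 0.61 ± 0.12. The groups did not overlap for Rplp0, Rplp1 or Rplp2.

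Rpl5 and Rpl11 encode the proteins that bind 5S rRNA and that, when free, also bind MDM2. Rpl5 was at 850, 649 and 624 CPM in siCONTROL and at 1422, 1244 and 1246 CPM in siCCNF, and rose by a log2 fold change of 0.88 ± 0.12 (adjusted p = 3.57e-05). Rpl11 was at 680, 473 and 442 CPM in siCONTROL and at 805, 660 and 700 CPM in siCCNF, a smaller rise of 0.44 ± 0.15 (adjusted p = 0.0276). Without siCONTROL replicate 3 the Rpl11 call was lost (adjusted p = 0.109), as it was without siCONTROL replicate 2 (adjusted p = 0.0973) or siCCNF replicate 1 (adjusted p = 0.103). For Rpl11 the siCONTROL replicate 1 library reached into the siCCNF range, and for Rpl5 the groups stayed apart.

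The largest called rises were in Rpl17, Rps27a and Rps18. Rpl17, a protein near the exit of the 60S peptide tunnel, was at 231, 153 and 172 CPM in siCONTROL and at 565, 531 and 444 CPM in siCCNF. The groups were far apart, and the log2 fold change was 1.47 ± 0.25 (adjusted p = 0.000306), 2.77-fold. Its level is uncertain too, since Rpl17-ps10 held more counts in siCONTROL than Rpl17 itself, with means of 225.5 against 185 CPM, and did not rise in siCCNF (0.10, adjusted p = 0.807). In siKEAP1/siCCNF the Rpl17-ps10 row was at 211, 523 and 330 CPM, high in the library where Rpl17 was low, whereas Rpl17-ps3 rose by 0.85 in siCCNF (adjusted p = 0.00178).

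Rps27a encodes a fusion of ubiquitin with a 40S protein. It was at 371, 244 and 313 CPM in siCONTROL and at 950, 315 and 743 CPM in siCCNF, so 1 siCCNF library, replicate 2, lay within the siCONTROL range. The log2 fold change was 1.11 ± 0.36 (adjusted p = 0.0200), and the call was lost by limma on FPKM (adjusted p = 0.0593) and without siCCNF replicate 1 (adjusted p = 0.105), siCCNF replicate 3 (adjusted p = 0.0577) or siCONTROL replicate 2 (adjusted p = 0.0733). Rps18, a low row, was at 37.5, 24.9 and 23.2 CPM in siCONTROL and at 66.4, 58.9 and 59.5 CPM in siCCNF, with a log2 fold change of 1.11 ± 0.14 (adjusted p = 3.26e-05). Its row shares its position with Vps52 on the opposite strand, and Rps27a with Clhc1.

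Some canonical genes were not called after siCCNF. Rps20, a 40S protein, was the most negative of the members and is named because its value was seen to depart. It was at 714, 509 and 498 CPM in siCONTROL and at 492, 426 and 445 CPM in siCCNF. Every siCCNF library lay below every siCONTROL library, but the log2 fold change of -0.34 ± 0.14 did not pass (adjusted p = 0.0607). Its size rested on siCONTROL replicate 1, since without that library the log2 fold change was -0.15 and did not pass. It passed at -0.15 without both libraries that stand apart (adjusted p = 0.0496) and at -0.34 by DESeq2 (adjusted p = 0.0469). Of the 16 members that were not called, the log2 fold changes were -0.14 for Rpl21, 0.07 for Rpl4, 0.12 for Rpl24, 0.13 for Rpl29, 0.17 for Rpl10, 0.33 for Rpl39, 0.39 for Rpl41, 0.46 for Rps29 and 0.56 for Rpl7a. Rpl10, Rpl39 and Rps29 did pass without siCONTROL replicate 1, at 0.26 (adjusted p = 0.0184), 0.55 (adjusted p = 0.0201) and 0.83 (adjusted p = 0.00617), and Rpl10 passed with the length trend removed (adjusted p = 0.0226). Rpl4 and Rpl10 are abundant, at 1415 and 930 CPM in siCONTROL and 1490 and 1049 CPM in siCCNF, and the SE of their log2 fold changes were 0.08 and 0.09.

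**Figure D2:**
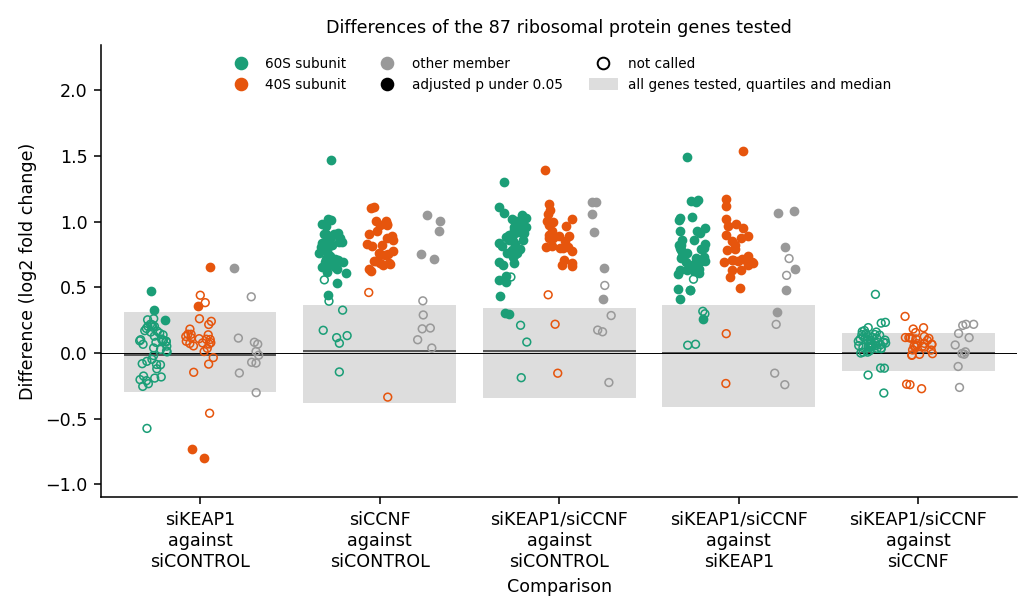
Difference (log2 fold change) of each of the 87 ribosomal protein genes tested in 5 comparisons, split into canonical 60S genes, canonical 40S genes and other members; filled points passed an adjusted p under 0.05, and grey boxes give the quartiles and median of all genes tested. In the 3 comparisons with CCNF depletion on 1 side only, most members lie above the grey box, with medians of 0.76, 0.85 and 0.72, and in the other 2 comparisons they lie around 0.

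The rise was also seen in pseudogene rows, which the rule did not select. Of 81 rows of ribosomal protein pseudogenes with enough counts, 51 were higher and 0 lower after siCCNF, with a median log2 fold change of 0.84. Over all genes tested, 22.5% were higher and 25.5% lower. Rps2-ps10, the pseudogene row with the most counts, was at 1112, 866 and 796 CPM in siCONTROL and at 1617, 1299 and 1224 CPM in siCCNF, a log2 fold change of 0.58 (adjusted p = 0.00173). The Rps2 row itself had a log2 fold change of 0.69 ± 0.18 (adjusted p = 0.00799), although siCCNF replicate 3, at 28.7 CPM, lay within the siCONTROL range of 22.0 to 31.2 CPM. Reads of the parent genes may be counted on these rows, so they are no independent genes.

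The rise was of similar size in members of short and long annotated length. The length is the one given for the gene in the deposited data, and mRNA length in these cells was not measured. The bins therefore do not say whether the rise varied with mRNA length, and the longest held 2 members. In every bin of gene length, from under 1000 bases to 5000 bases and over, the median log2 fold change of the members after siCCNF lay between 0.71 and 0.87. For the other genes tested it was 0.14 in 1236 genes under 1000 bases and between -0.05 and 0.04 in the longer bins. Across the 87 members, which share the same libraries, the log2 fold change had a Pearson correlation of 0.092 with log2 length and of 0.295 with level. The 692 other genes at or above 7.85 log2 CPM had a median of -0.04. With the trend of each library over gene length fitted and removed, 74 members were higher and 0 lower, against 26% and 25.8% of all genes.

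**Figure D3:**
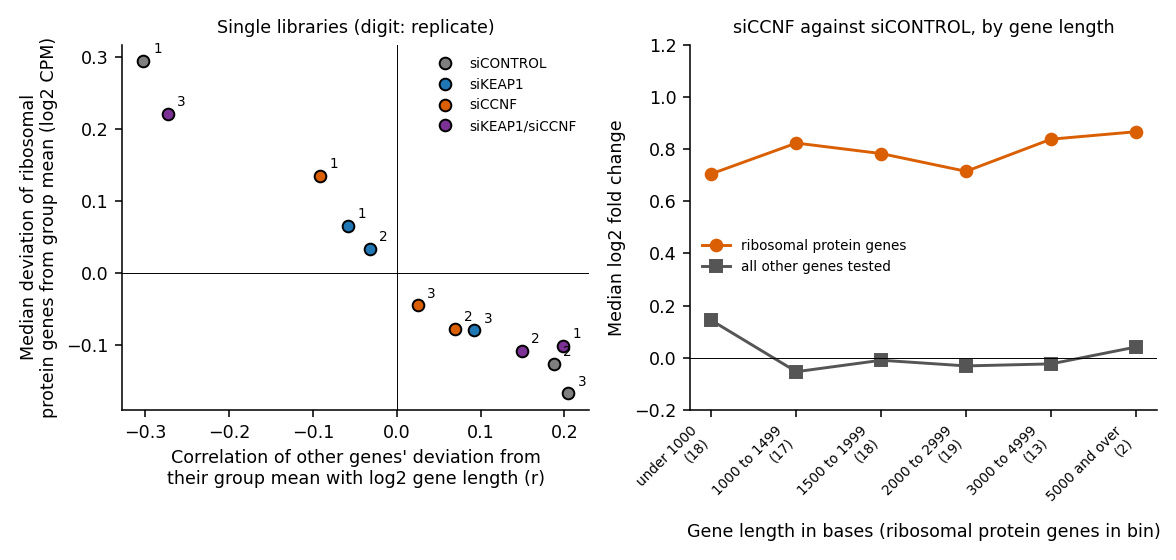
Left, median deviation of the ribosomal protein genes from their group mean (log2 CPM) against the correlation of the deviation of all other genes with log2 gene length, 1 point per library with its replicate number; siCONTROL replicate 1 and siKEAP1/siCCNF replicate 3 stand apart at the upper left, with correlations of -0.302 and -0.273. Right, median log2 fold change after siCCNF against siCONTROL by gene length in bases for ribosomal protein genes (circles, number of genes in brackets) and all other genes (squares); the members lie between 0.71 and 0.87 in each bin.

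With all libraries, few ribosomal protein genes were called after depletion of KEAP1 alone. After siKEAP1, 6 of 87 members were higher and 2 lower than in siCONTROL, against 20.4% and 20.2% of all genes tested, and the median log2 fold change was 0.09. No called difference was over 2-fold, which 7.59% of all genes were upwards and 3.88% downwards. The number of members called higher depended on siCONTROL replicate 1, the library with the strongest length trend. It was 29 without that library, with 19.8% of all genes called higher, and 51 without both libraries that stand apart, with 23.6% of all genes called higher, and the median then was 0.23. With the length trend removed as well, it was 32 higher and 7 lower, against 20.3% and 29.8% of all genes. With the trend removed and all libraries kept, it was 5 higher and 6 lower, both under the shares of 18.8% and 28.6% of all genes.

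The larger called rises after siKEAP1 were in Rps2, Rps27l and Rpl13a. Rps27l is a paralog of Rps27 and a known target of p53. It was at 164, 123 and 126 CPM in siCONTROL and at 219, 230 and 199 CPM in siKEAP1, with no overlap between the groups. The log2 fold change was 0.65 ± 0.12 (adjusted p = 0.000691). On the Rps2 row the CPM went from 31.2, 22.0 and 27.1 to 40.5, 44.0 and 42.1, a log2 fold change of 0.65 ± 0.19 (adjusted p = 0.0127). The call was lost without siCONTROL replicate 2 (adjusted p = 0.0594). Rpl13a, a 60S protein also known from the interferon response, went from 68.9, 51.5 and 49.6 CPM to 83.5, 79.0 and 73.3 CPM, a log2 fold change of 0.47 ± 0.13 (adjusted p = 0.0116). Its call was lost without siCONTROL replicate 2 (adjusted p = 0.0529) or replicate 3 (adjusted p = 0.0540).

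Rps28 and Rps29, which encode small 40S proteins, were the 2 members that fell after siKEAP1. Rps28 was at 314, 195 and 195 CPM in siCONTROL and at 164, 132 and 129 CPM in siKEAP1, with a log2 fold change of -0.73 ± 0.22 (adjusted p = 0.0166). Rps29 was at 326, 180 and 170 CPM in siCONTROL and at 148, 116 and 124 CPM in siKEAP1, with a log2 fold change of -0.80 ± 0.26 (adjusted p = 0.0243). The groups did not overlap for either gene, but siCONTROL replicate 1 lay far above the other control libraries. Without it the log2 fold changes were -0.47 for Rps28 (adjusted p = 0.0625) and -0.45 for Rps29 (adjusted p = 0.108). Both calls were also lost without siKEAP1 replicate 2 or replicate 3, with adjusted p-values between 0.0575 and 0.0833, and that of Rps29 by limma on FPKM (adjusted p = 0.0505). Rps27, of similar size and named as the partner of Rps27l, had a log2 fold change of -0.46 ± 0.20 (adjusted p = 0.0806).

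After depletion of both proteins most members were again above siCONTROL. After siKEAP1/siCCNF, 75 of 87 members were higher than in siCONTROL and 0 were lower, against 20.6% and 23.6% of all genes. The median log2 fold change was 0.85, a 1.80-fold difference, with 42 of 46 canonical 60S and 27 of 30 canonical 40S genes higher. The groups did not overlap for 71 members, as for 23.2% of all genes, and 16 members were called and over 2-fold higher, as were 4.73% of all genes. Without the 2 libraries that stand apart, 77 were higher and 0 lower, against 23.4% and 25.4% of all genes. The 3 comparisons with siCONTROL share its libraries, so they are not independent of each other.

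The largest called rises were in Rps27a, Rpl17 and Rpl9-ps6. Rps27a was at 696, 725 and 1016 CPM after siKEAP1/siCCNF, above all siCONTROL libraries, with a log2 fold change of 1.39 ± 0.36 (adjusted p = 0.00645). Rpl17 was at 475, 324 and 572 CPM, a log2 fold change of 1.30 ± 0.25 (adjusted p = 0.000831). Rpl9-ps6, listed as protein-coding in spite of its symbol, went from 72.2, 64.2 and 63.4 CPM in siCONTROL to 137, 135 and 171 CPM, a log2 fold change of 1.15 ± 0.10 (adjusted p = 8.52e-07). It can share reads with Rpl9.

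Rps6 was at 1283, 1292 and 1486 CPM in siKEAP1/siCCNF, a log2 fold change of 0.88 ± 0.10 against siCONTROL. For Rpl5 the values were 1294, 1305 and 1526 CPM and 0.96 ± 0.12. Of all members tested, 7 were called in none of the 3 comparisons with CCNF depletion on 1 side only. These were Rpl21, Rpl24, Rpl39, Rps20, Rps27rt, Rpl10-ps3 and Rpl36a-ps1.

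The siCCNF difference could be measured a further time, in KEAP1-depleted cells, from the means of the other libraries. Both comparisons came from the same fit and share its estimate of the spread, so their calls are not fully independent. Between siKEAP1/siCCNF and siKEAP1, 75 of 87 members were higher and 0 lower, against 24.1% and 26.9% of all genes, with a median log2 fold change of 0.72. The groups did not overlap for 77 members, as for 29% of all genes, and 13 members were called and over 2-fold higher, as were 5.32% of all genes. Without the 2 libraries that stand apart, 75 were higher and 2 lower, against 28.9% and 29.9% of all genes. In both backgrounds 69 members (79.3%) were called higher, as were 13.5% of the other genes tested. Across the 87 members the log2 fold changes in both backgrounds had a Pearson correlation of 0.763 and a Spearman correlation of 0.700, against 0.566 and 0.607 across the 15035 other genes.

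Rps28 and Rps29 had their lowest values in siKEAP1, which places them above the line of equal values in the plot of both backgrounds. Rps28 was at 263, 278 and 418 CPM in siKEAP1/siCCNF, a log2 fold change of 1.17 ± 0.22 against siKEAP1 (adjusted p = 0.000594) and of 0.44 ± 0.22 against siCONTROL (adjusted p = 0.115). Rps29 was at 207, 224 and 356 CPM, a log2 fold change of 1.02 ± 0.26 against siKEAP1 (adjusted p = 0.00512) and of 0.22 ± 0.26 against siCONTROL (adjusted p = 0.517). The values against siCONTROL rested on its replicate 1, without which Rps28 was at 0.70 (adjusted p = 0.00905) and Rps29 at 0.58 (adjusted p = 0.042). In both genes siKEAP1/siCCNF replicate 3 was the highest of its group, and the interaction did not pass (adjusted p = 0.293 for Rps28 and 0.313 for Rps29).

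**Figure D4:**
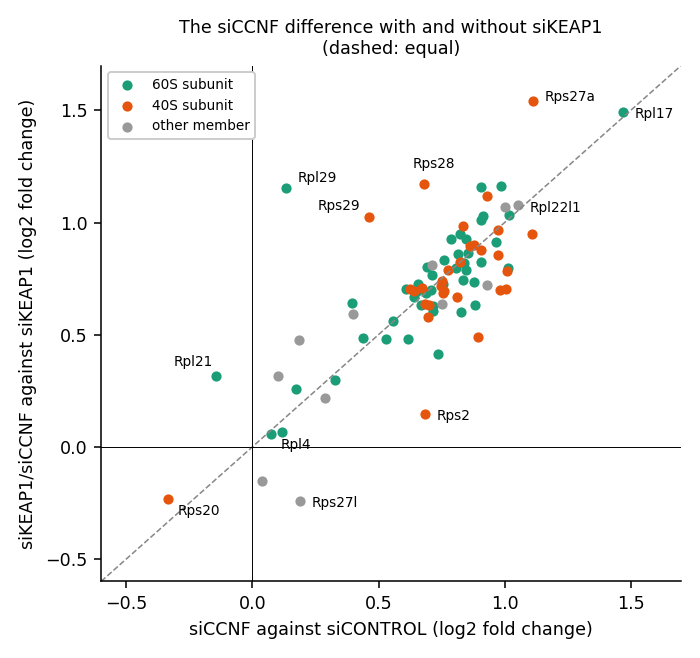
Log2 fold change of siKEAP1/siCCNF against siKEAP1 plotted against that of siCCNF against siCONTROL for the 87 ribosomal protein genes tested; the dashed line marks equal values. Most points cluster near the line between 0.4 and 1.2 on both axes, with Rps20 below 0 on both and Rps2 and Rps27l below the line.

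Whether the effect of siCCNF differed between the backgrounds was tested by the interaction term. With all libraries, 0 members were called in either direction and 2 had an unadjusted p under 0.05, whereas 10.6% and 10.5% of all genes tested were called higher and lower. The median interaction of the members was near 0 (-0.0029). In the comparison of siKEAP1/siCCNF with siCCNF, 0 members were called and 2 had an unadjusted p under 0.05, against 3% and 2.19% of all genes called higher and lower, and the median log2 fold change was 0.07. The interaction depended on the 2 libraries that stand apart. Without them, 39 members had a negative and 0 a positive interaction that passed, when 14.5% of all genes passed with a negative one, and the median was -0.26. With the length trend removed as well, 21 were negative, against 12.8% of all genes. Without siCONTROL replicate 1 alone 7 were negative, a share under the 10.7% of all genes. By DESeq2, limma on FPKM and total library scaling, the counts with all libraries were 0 as well.

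The member with the smallest interaction p was Rps27l, with an interaction of -0.43 ± 0.17 (adjusted p = 0.0893). It was at 162, 152 and 158 CPM after siCCNF and at 160, 175 and 214 CPM after siKEAP1/siCCNF. Against siCONTROL its log2 fold changes were 0.65 after siKEAP1, 0.19 ± 0.12 after siCCNF (adjusted p = 0.207) and 0.41 ± 0.12 after siKEAP1/siCCNF (adjusted p = 0.0134). The last call was lost without siCONTROL replicate 2 or 3 or siKEAP1/siCCNF replicate 3 (adjusted p between 0.0565 and 0.0623). Against siKEAP1, siKEAP1/siCCNF gave -0.24 ± 0.12 (adjusted p = 0.106).

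The paralogs did not all move with their parent genes. On the FPKM scale, Rps27l stood at 67.7% ± 9.31 of Rps27 (SD, n = 3) in siCONTROL, 146% ± 19.5 in siKEAP1, 40.6% ± 6.0 in siCCNF and 56.6% ± 4.90 in siKEAP1/siCCNF. On this scale Rps27l was above Rps27 in each of the 3 siKEAP1 libraries, and in the 9 others below it. That order depends on the annotated lengths used, 816 bases for Rps27l and 1043 for Rps27. Rps27 itself was at 329, 257 and 206 CPM in siCONTROL and at 604, 421 and 487 CPM in siCCNF, a log2 fold change of 0.93 ± 0.20 (adjusted p = 0.00165).

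Rpl22l1, a paralog whose product can take the place of RPL22 in the ribosome, rose more than its parent. It was at 65.7, 46.1 and 50.6 CPM in siCONTROL, 60.2, 55.6 and 44.8 in siKEAP1, 136, 99.1 and 102 in siCCNF and 112, 106 and 122 in siKEAP1/siCCNF. Each library with siCCNF lay above each without it. The log2 fold change after siCCNF was 1.05 ± 0.15 (adjusted p = 8.07e-05), and that of Rpl22 was 0.53 ± 0.13 (adjusted p = 0.00499). Per length, Rpl22l1 stood at 24.2% ± 1.76 of Rpl22 in siCONTROL, 22.3% ± 1.09 in siKEAP1, 34.7% ± 3.35 in siCCNF and 33.9% ± 2.05 in siKEAP1/siCCNF.

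Rpl7l1, which takes part in ribosome assembly, had a log2 fold change of 0.10 ± 0.08 after siCCNF (adjusted p = 0.337), whereas Rpl7 rose by 0.65 ± 0.10. Its level per length was 11.7% ± 0.372 of Rpl7 in siCONTROL and 7.99% ± 0.199 in siCCNF. Rpl36al was close to the limit of detection, at 0.513 CPM in siCONTROL and 0.984 CPM in siCCNF, with a log2 fold change of 0.93 ± 0.34 (adjusted p = 0.0369), a call that was lost without a filter on low counts (adjusted p = 0.0841), without the 2 libraries that stand apart (adjusted p = 0.0697) and without siCONTROL replicate 1 or 2 or siCCNF replicate 1 or 3 (adjusted p between 0.0683 and 0.134). Its row overlaps another annotated gene on the same strand. Rps27rt, a near-copy of Rps27, ranged from 35.7 to 83.6 CPM within siCONTROL alone, and its log2 fold change of 0.40 ± 0.42 after siCCNF did not pass (adjusted p = 0.457). Rps19bp1, the member that is no subunit, was at 32.6 CPM in siCONTROL and 37.0 CPM in siCCNF, with a log2 fold change of 0.18 ± 0.14 (adjusted p = 0.305).

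**Figure D5:**
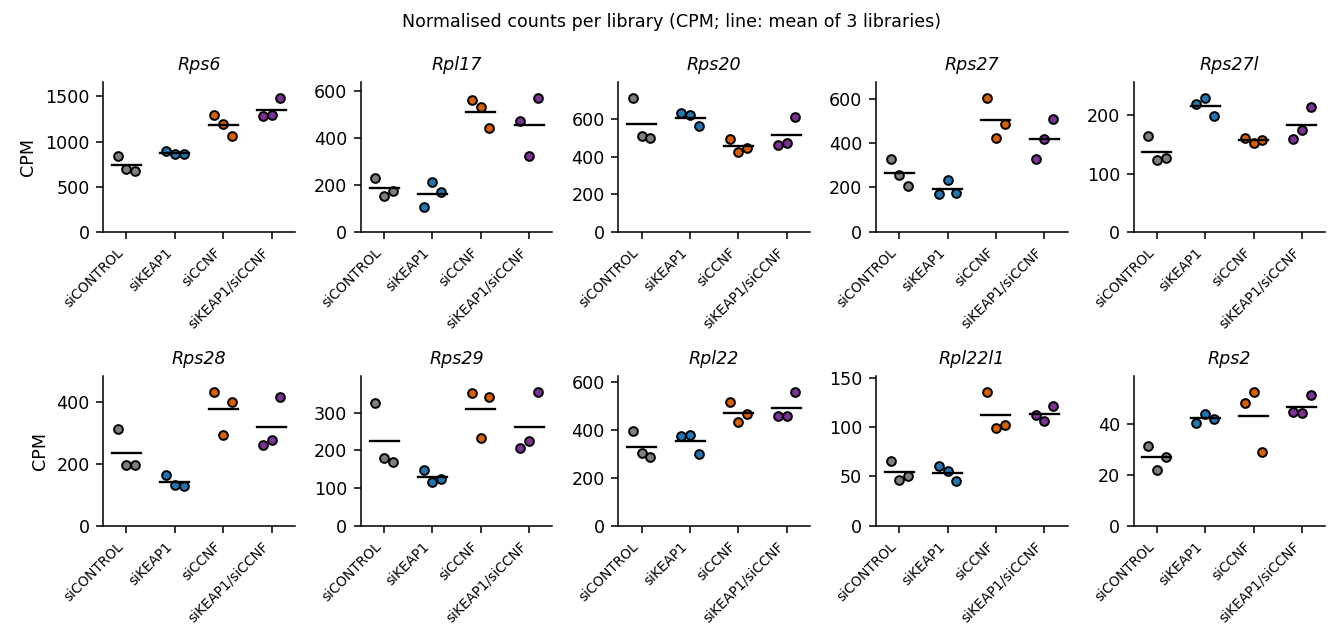
Normalised counts per library (CPM) of 10 members in the 4 siRNA groups; points are libraries in the order of their replicate numbers and lines are means of 3 libraries. Rps6, Rpl17 and Rpl22l1 are higher in the 6 libraries with siCCNF, Rps20 is not, Rps27l is highest in siKEAP1, and Rps28 and Rps29 are lowest in siKEAP1.

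Genes of ribosomal proteins that the naming rule leaves out were higher as well. Rpsa (0.66), Fau (0.80) and Rack1 (0.98) rose on the log2 scale in siCCNF.

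Other TOP mRNAs, which encode mostly translation factors, showed a smaller shift with exceptions. Of 16 genes, 11 were higher and 3 lower after siCCNF (22.5% and 25.5% of all genes), with a median log2 fold change of 0.40, and 5 were higher and 1 lower after siKEAP1. Eef1g, a subunit of an elongation factor, rose by 1.14 and Eif3f, a subunit of an initiation factor, by 1.09. Vim, the intermediate filament protein vimentin, fell by 0.62 and Hnrnpa1, a splicing regulator, fell by 0.34. After siKEAP1/siCCNF, 12 were higher and 2 lower.

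Genes that control TOP mRNAs and mTORC1 had no common direction. Of 20 genes, 5 were higher and 7 lower after siCCNF, with a median near 0 (-0.0023), where 22.5% and 25.5% of all genes were called. The larger rises were in Sesn2 (1.62) and Ddit4 (0.85), which encode inhibitors of mTORC1 signalling, and the larger falls were in Rps6kb1 (-1.08), which encodes an S6 kinase, and Deptor (-0.98), which encodes a protein that binds and inhibits mTOR. Larp1, named because its product binds TOP tracts and after its value was seen, rose by 0.37 ± 0.08 (adjusted p = 0.00146). The counts were 3 higher and 2 lower after siKEAP1, under the 20.4% and 20.2% of all genes, and 5 higher and 7 lower after siKEAP1/siCCNF.

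Genes for making ribosomes rose in part, and their counts are to be read against 22.5% of all genes higher and 25.5% lower after siCCNF, 20.4% and 20.2% after siKEAP1 and 20.6% and 23.6% after siKEAP1/siCCNF, as are those of the lists that follow. Of 32 assembly factors, 13 were higher and 1 lower after siCCNF (median 0.18), 9 higher and 3 lower after siKEAP1 (median 0.01) and 16 higher and 1 lower after siKEAP1/siCCNF (median 0.27). Of 15 genes for RNA polymerase I and rDNA transcription, 8 were higher and 2 lower after siCCNF (median 0.31), 2 higher and 2 lower after siKEAP1 and 9 higher and 2 lower after siKEAP1/siCCNF.

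Mitochondrial ribosomal proteins, whose genes are nuclear and short as well, did not share the shift against siCONTROL. Of 77 genes, 6 were higher and 14 lower after siCCNF, and their median log2 fold change was -0.02. In siKEAP1/siCCNF 11 were higher and 9 lower (median 0.04), and after siKEAP1 5 were higher and 15 lower (median -0.13). Between siKEAP1/siCCNF and siKEAP1, 26 were higher and 7 lower (median 0.15), against 24.1% and 26.9% of all genes. Of 72 subunits of oxidative phosphorylation, with a median length of 1631 bases, 3 were higher and 9 lower after siCCNF (median -0.01), 6 higher and 5 lower after siKEAP1/siCCNF and 0 higher and 16 lower after siKEAP1. Between siKEAP1/siCCNF and siKEAP1, 26 of these subunits were higher and 3 lower (median 0.24). Of 8 genes of the p53 pathway, among them Mdm2 and Cdkn1a, 4 were higher after siCCNF, 5 higher and 1 lower after siKEAP1 and 5 higher after siKEAP1/siCCNF.

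Members with and without the features examined had similar medians after siCCNF, where 22.5% of all genes tested were called higher. The 30 members with the TOP run at an annotated start had a median log2 fold change of 0.76 with 26 higher, and the 32 tested members without it had 0.79 with 26 higher. An annotated start can lie away from the start used in these cells, so members without the run may still have a TOP tract. The split therefore cannot separate members by TOP tract, and a part of the tract in the rise was not tested. The 29 members that host the 55 snoRNA genes had a median of 0.75 with 23 higher, and the 58 others had 0.76 with 48 higher. Among the 67 members whose row overlaps no other protein-coding gene, 52 were higher. Whether reads were counted by strand is not given in the sources used here, so for the other 20 members reads of the overlapping gene cannot be told apart. Of the 8 canonical genes under 30 FPKM, Rpl21, Rpl24 and Rpl29 were not called, and Rps10 (0.98), Rpl26 (0.85), Rps18 (1.11), Rps2 (0.69) and Rpl13a (0.74) rose on the log2 scale in siCCNF.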

How the data were processed

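RNA from 12 C2C12 cultures was purified by poly(A) selection and sequenced by a service provider (Novogene). The authors deposited 1 table with read counts per gene without normalization, FPKM values per library made by the provider, and gene lengths in bases. Per the labels, the submitters' processing notes name HISAT2 without a version and the build GRCm39. The positions of 53462 of 54409 shared gene IDs equal those of GENCODE M21 on GRCm38, whose coordinates are used here. The counting tool and the treatment of multi-mapping reads are not given in the sources used here. The table also holds the authors' log2 fold changes, p-values and adjusted p-values against siCONTROL, which were not used. The labels give the serum as 5%.

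Counts were analysed in R 4.3.3 with edgeR 4.0.16 (filterByExpr, TMM, quasi-likelihood fit of 4 group means to all 12 libraries), which tested 15122 genes. Benjamini-Hochberg adjustment ran over all genes tested, and a gene was called at an adjusted p under 0.05. The p-values measure the spread between these libraries. CPM values are scaled by TMM, and a prior count of 2 was used for log2 CPM. The interaction is the effect of siCCNF in KEAP1-depleted cells minus that in control cells. The members and gene lists were chosen with earlier results of these data known, so lists are given by counts and medians without a test. The genes named were paralog pairs and reference members, and the 3 largest called rises and falls against siCONTROL; of other lists, at most the 2 largest rises and falls.

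Alternatives were DESeq2 1.42.0, limma 3.58.1 on log2(FPKM + 1), total library sizes, no filter, at least 10 counts in every library, a replicate block, removal of the gene length trend (a spline with 5 degrees of freedom per library), other member sets and leaving out libraries. The fits were tested on simulated data. The summary of 1 gene list is not reported here.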

Additional observations from a re-analysis of the deposited data

Results flagged for a closer look

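No member had an interaction that passed in the fit with all libraries, but other genes named did, and 4 of them are described here. All 6 myoblast markers (median 0.77) and 4 of the 8 myotube markers tested also passed with a positive interaction. Of the 8 genes of the p53 pathway, 5 passed with a negative one (median -0.74). Over all genes tested, 10.6% passed with a positive and 10.5% with a negative interaction. The interaction was 0.98 ± 0.11 for Keap1 (adjusted p = 6.99e-05), whose fall after siKEAP1 was smaller in CCNF-depleted cells, with a mean of 12.6 CPM in siKEAP1 and 24.1 CPM in siKEAP1/siCCNF. It was 0.71 ± 0.11 for Ccnf (adjusted p = 0.000442), which was at 59.4 CPM in siKEAP1 against 81.1 CPM in siCONTROL. It was 0.73 ± 0.10 for Hnrnpa1 (adjusted p = 0.00034), and -0.96 ± 0.10 for Sesn2 (adjusted p = 3.74e-05), whose log2 fold change against siCONTROL was 1.01 after siKEAP1, 1.62 after siCCNF and 1.68 after both.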

How the results depend on the processing

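Of 426 values of counts and medians under alternatives, 377 stayed within the limits set (1.5 times for a count, 1 SD for a median), 49 moved and 0 reversed. A count could only stay or move, and a median counted as reversed only if its sign changed by at least that SD (0.173). Smaller changes of sign counted as unchanged, as after siKEAP1, where the median was -0.00082 without siCONTROL replicate 3. The shares of counts were not part of this tally. Whether a named member was called or not was unchanged in 1782 of 1911 alternatives, which includes members not called in either fit. Calls were lost in 44 and gained in 85, with 0 reversed. After siKEAP1, the members higher and lower were 12 and 4 without a filter, against 11.1% and 11% of all genes. By limma on FPKM 1 was lower, against 19.6%, and with the length trend removed 6 were lower, against 28.6%. Without the 2 libraries with a length trend 51 were higher, against 23.6%. With both changes 32 were higher and 7 lower, against 20.3% and 29.8%. The last setting, the scaling on genes that are no members and the canonical set were chosen after seeing the data. After siCCNF, 1 member (Rps20) was lower by DESeq2, with total library sizes, without a filter and without the 2 libraries, where the median was 0.93. Between siKEAP1/siCCNF and siKEAP1, 1 was lower with the trend removed (24.1% of all genes), 2 without the 2 libraries (29.9%) and 2 with both (25.7%). Between siKEAP1/siCCNF and siCCNF, 1 was higher and 3 lower without the 2 libraries, with and without the trend. Of all genes, 7.31% were higher and 6.75% lower without the 2 libraries, and 6.54% and 8.05% with the trend removed as well. The interaction was higher in 2 and lower in 3 without a filter, against 5.47% and 6.16% of all genes. It was lower in 1 with the trend removed (10.6% of all genes), in 39 (median -0.26) without the 2 libraries (14.5%) and in 21 with both (12.8%). The cause of these changes was not tested. Requiring more than 2-fold left 0 higher and 0 lower after siKEAP1, and 9, 16 and 13 higher after siCCNF, after siKEAP1/siCCNF and between siKEAP1/siCCNF and siKEAP1.

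With pseudogene rows added, the shares were 7.43%, 6.42% and 6.60% in siCCNF and 6.85%, 6.84% and 8.43% in siKEAP1/siCCNF. With the length trend removed, 18.8% of all genes were higher and 28.6% lower after siKEAP1 (20.4% and 20.2% without), and 32.3% and 24.1% between siKEAP1/siCCNF and siKEAP1 (24.1% and 26.9% without).

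Leaving out 1 library at a time gave, after siKEAP1, 1 to 29 members higher, 0 to 5 lower and medians of -0.00082 to 0.23. After siCCNF it gave 66 to 77 higher, 0 to 1 lower and medians of 0.67 to 0.93, and after siKEAP1/siCCNF 68 to 80 higher, 0 lower and 0.72 to 0.99. Between siKEAP1/siCCNF and siKEAP1 it gave 68 to 76 higher, 0 to 2 lower and 0.63 to 0.78, and between siKEAP1/siCCNF and siCCNF 0 to 1 higher, 0 lower and -0.05 to 0.14. For the interaction it gave 0 higher, 0 to 7 lower and -0.15 to 0.09. The extremes for siKEAP1 came without siCONTROL replicate 1 (29) and replicate 2 (1).

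Whether replicate numbers pair the libraries was not settled. Same-numbered libraries had correlations of -0.268 to 0.204 (median 0.0408), with 4 of 18 over 0.1. Other pairs had -0.276 to 0.390 (median -0.00546), with 5 of 36 over 0.1. Deviations from means of 3 libraries cannot exclude a batch shared by libraries of the same number. With the replicate block, 6 members were higher and 2 lower after siKEAP1 (20% and 19.4% of all genes) and 72 and 0 after siCCNF (22% and 24.8%). The counts were 75 and 0 after siKEAP1/siCCNF (20% and 23%) and 77 and 0 between siKEAP1/siCCNF and siKEAP1 (23.7% and 26.3%). The deeper libraries of the CCNF-depleted groups have less counting error.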
